A study of Mus musculus with 6 samples.

Results

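Smndc1, the SMN complex and coilin were followed in αTC1 cells treated with an inhibitor of SMNDC1. The 10 genes, namely Smndc1, Smn1, Gemin2, Ddx20, Gemin4, Gemin5, Gemin6, Gemin7, Gemin8 and Coil, were taken by name from the 55487 genes in the deposited tables. All 10 were among the 15082 genes that passed the filter on low counts. The cells are a mouse glucagonoma line used as a model of the pancreatic α cell. One group of 3 libraries came from cells given G786-1089, which the labels describe as an SMNDC1 inhibitor, and the other 3 came from cells given DMSO, the solvent. All 6 column names begin with WT and name no other genotype. The labels give neither dose nor duration. They do not say that the libraries of a group came from separate cultures. The study's reporting summary states for its cell experiments in general that the treatments of a replicate were divided from 1 batch of cells. It adds that they were handled together. The p-values therefore measure only the spread between these libraries. Libraries are called A, B and C by the letters in their column names, and the letters could not be tied to the replicate numbers of the labels.

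SMN, encoded by Smn1, is the core of a complex that loads a ring of Sm proteins onto spliceosomal small nuclear RNAs. Its Tudor domain binds symmetrically dimethylated arginines in the tails of Sm proteins, and loss of SMN in humans causes spinal muscular atrophy. SMNDC1, also called SPF30, is a splicing factor with a Tudor domain related to that of SMN. Coilin, encoded by Coil, is the scaffold of the Cajal body, a nuclear body where the assembled particles mature.

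Of the 10 genes, 3 rose with G786-1089, namely Gemin2, Ddx20 and Coil, by 1.77-fold to 2.42-fold, and none fell by edgeR's quasi-likelihood test at an adjusted p below 0.05. The transcripts of Smndc1 and Smn1 differed between the groups by less than could be told from the spread of 3 libraries. Across all tested genes, 6.98% were called higher with G786-1089 and 7.8% were called lower. The inhibitor libraries did not overlap the DMSO libraries for 3 of the 10 genes in the upward direction, where 18.2% of all tested genes did the same, and for 1 gene, Gemin6, in the downward direction, where 18.5% did. At an unadjusted p below 0.05 (edgeR), 3 genes were higher and 1 was lower, beside 2202 and 2036 of all 15082 tested genes. DESeq2 called 1 of the 10 lower, beside 2105 of the 16397 genes for which it gave an adjusted p. No count over the 10 genes was tested against the rest.

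The promoters of the genes that rose, together with that of Gemin6, the gene whose inhibitor libraries all lay below DMSO, are shown so that they can be read against the values. Each runs from 250 bases before to 50 bases after the gene's RefSeq start in GRCm38.p6, on the strand of the gene. Gemin2 is at chr12:59013141-59013440 on the plus strand, Ddx20 at chr3:105687522-105687821 on the minus strand, Coil at chr11:88973685-88973984 on the plus strand and Gemin6 at chr17:80224201-80224500 on the plus strand. The Coil window lies inside the counted gene, which starts upstream of it at chr11:88970252. Capitals mark matches, on either strand, to any of 5 motifs.
Gemin2: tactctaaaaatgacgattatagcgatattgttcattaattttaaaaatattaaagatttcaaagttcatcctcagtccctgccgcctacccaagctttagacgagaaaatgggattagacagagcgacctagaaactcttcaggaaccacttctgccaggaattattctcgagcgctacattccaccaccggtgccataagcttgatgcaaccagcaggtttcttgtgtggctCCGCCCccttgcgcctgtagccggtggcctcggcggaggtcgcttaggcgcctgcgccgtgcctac
Ddx20: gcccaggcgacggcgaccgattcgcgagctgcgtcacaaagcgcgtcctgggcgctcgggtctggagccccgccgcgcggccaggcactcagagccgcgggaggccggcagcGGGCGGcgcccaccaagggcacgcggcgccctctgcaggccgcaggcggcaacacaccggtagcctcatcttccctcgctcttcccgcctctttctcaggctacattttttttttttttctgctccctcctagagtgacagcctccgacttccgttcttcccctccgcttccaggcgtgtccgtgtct
Coil: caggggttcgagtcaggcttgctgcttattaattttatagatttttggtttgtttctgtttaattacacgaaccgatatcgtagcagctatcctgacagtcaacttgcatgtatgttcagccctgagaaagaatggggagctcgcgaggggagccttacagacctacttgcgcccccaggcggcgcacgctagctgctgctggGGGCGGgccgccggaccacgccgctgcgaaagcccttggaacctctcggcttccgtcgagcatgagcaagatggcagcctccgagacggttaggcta
Gemin6: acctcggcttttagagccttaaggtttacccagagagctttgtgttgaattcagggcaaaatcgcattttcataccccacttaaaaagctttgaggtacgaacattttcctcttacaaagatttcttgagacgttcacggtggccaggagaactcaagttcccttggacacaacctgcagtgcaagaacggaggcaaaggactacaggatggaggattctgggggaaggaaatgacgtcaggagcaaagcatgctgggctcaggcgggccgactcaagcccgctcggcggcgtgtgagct

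The motifs were the ETS motif CCGGAAG, the NRF1 motif, the CCAAT box, the E-box CACGTG and the GC box GGGCGG. The promoters of Gemin2, Ddx20 and Coil each held 1 GC box and no match to the other motifs, and that of Gemin6 held no match to any of them. Genes that were not called held GC boxes too, among them Gemin4 with 2, Gemin5 with 2 at each start and Gemin7 with 4. Neither start of Smn1 held a GC box. A GC box was found in 35.7% of the 32851 promoters of the same length, a CCAAT box in 37.4%, an ETS motif in 8.86%, an E-box in 7.15% and the NRF1 motif in 0.971%. Smndc1, also not called, has 2 annotated starts. Each of its promoters held 1 GC box, and the one at chr19:53389992-53390291 also held 2 ETS motifs. One start of Smn1, at chr13:100124605-100124904, held 1 ETS motif and 1 CCAAT box, as did the promoter of Gemin8 beside its 3 GC boxes. The matches describe letters in these windows only.

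Smndc1 lies at chr19:53379390-53390578 on the minus strand (GRCm38, as are all gene positions here). Its level was 4.14, 1.22 and 6.03 CPM in G786-1089 libraries A, B and C, where CPM is the count relative to the TMM-scaled total of the library, and 2.78, 1.71 and 1.88 in DMSO libraries A, B and C. Inhibitor libraries A and C lay above every DMSO library and library B lay below every one. The means were 3.80 ± 2.42 and 2.12 ± 0.575 CPM (SD, n = 3), a log2 fold change of 0.84 with an SE of 0.67 and an adjusted p of 0.481 (edgeR). The 95% interval of the log2 fold change, -0.75 to 2.43, holds both a fall and a large rise. It was 1.26 without inhibitor library B and 0.34 without inhibitor library C. The compound acts on the protein, so the level of the transcript does not check the labels.

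Smn1, at chr13:100124852-100137690 on the plus strand, had 0.455, 0.300 and 1.82 CPM with G786-1089 and 1.59, 1.66 and 0.846 with DMSO. Libraries A and B of the inhibitor were below all DMSO libraries, whereas library C was above them. The log2 fold change was -0.67 with an SE of 0.86, a 95% interval of -2.71 to 1.37 and an adjusted p of 0.682 (edgeR). Without inhibitor library C it was -1.85 and without inhibitor library B it was -0.26. In each library these are small numbers, from 30 to 158 counts for Smn1 and from 102 to 523 for Smndc1. The ratio of Smndc1 to Smn1 in FPKM, a level per length of transcript, was 5.24, 2.34 and 1.90 in the inhibitor libraries against 1.001, 0.591 and 1.27 in DMSO, and these ranges did not overlap. In inhibitor libraries A and B this ratio rests on 34 and 30 counts of Smn1. How often other pairs of genes separate in this way was not examined. The ratio of Gemin2 to Smn1 was 169.3, 298.1 and 52.7 against 29.97, 26.1 and 67.3, and its ranges did overlap. Neither Smndc1 nor Smn1 was called on its own.

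**Figure D1:**
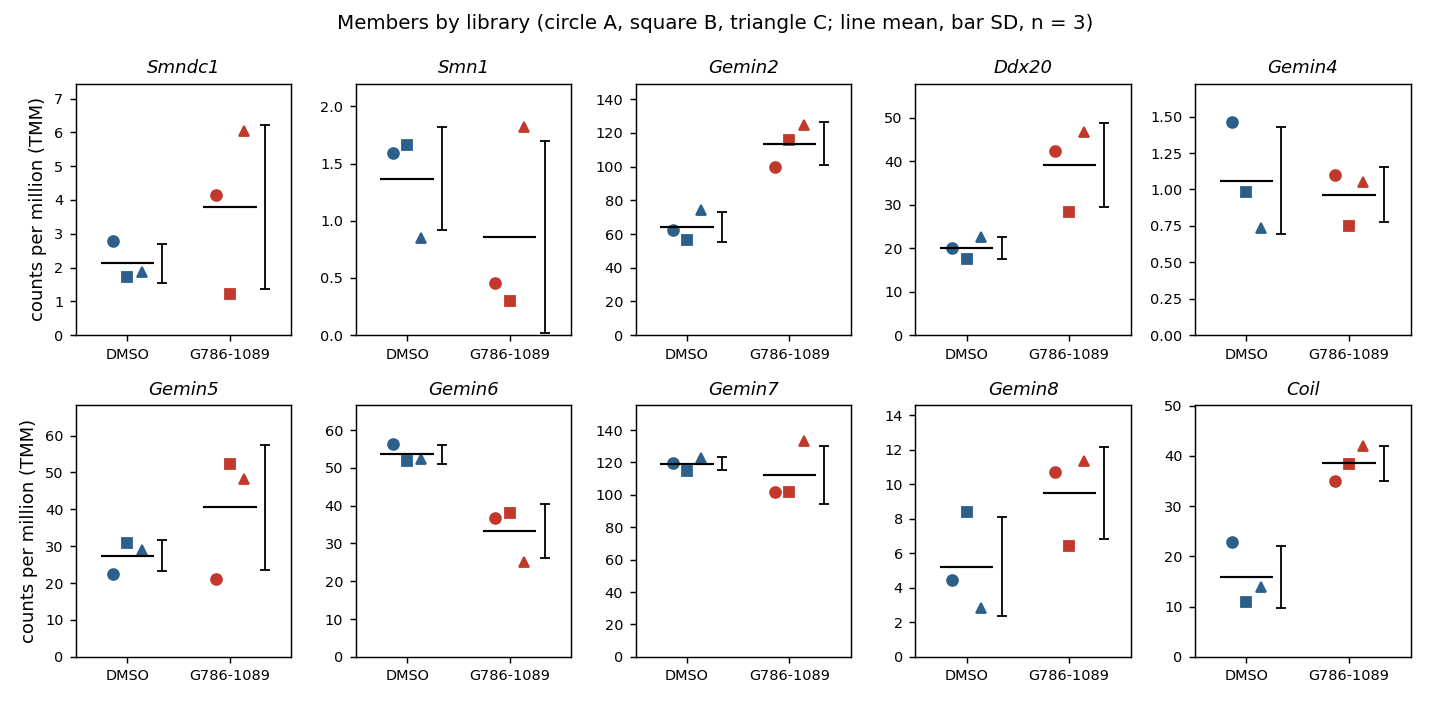
Level of each gene in every library, in CPM after TMM scaling, on an axis that starts at 0. Circles, squares and triangles are libraries A, B and C, the line is the mean and the bar the SD of 3 libraries, and only Gemin2, Ddx20, Coil and, downward, Gemin6 have groups that do not overlap.

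Gemin2 is the partner that binds SMN directly and holds the Sm proteins during ring assembly. The gene, at chr12:59013393-59028470 on the plus strand, stood at 99.9999, 116 and 125 CPM with G786-1089 and at 62.1, 56.3 and 74.1 with DMSO. Every inhibitor library was above every DMSO library. It rose 1.77-fold, from 64.2 ± 9.05 to 114 ± 12.6 (SD, n = 3), a log2 fold change of 0.82 with an SE of 0.15 and an adjusted p of 0.0146 (edgeR). The adjusted p was 0.0612 without DMSO library A, 0.0541 without DMSO library B and 0.0515 without inhibitor library C, so that the call was lost in each case.

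Ddx20 encodes Gemin3, a DEAD-box helicase of the complex. At chr3:105678270-105687574 on the minus strand, it had 42.4, 28.4 and 46.7 CPM with G786-1089 and 19.9, 17.4 and 22.6 with DMSO. The lowest inhibitor library, B, was still above the highest DMSO library. Ddx20 rose 1.96-fold, with a log2 fold change of 0.97, an SE of 0.24 and an adjusted p of 0.0405 (edgeR). The call was lost without DMSO library A, B or C (adjusted p of 0.118, 0.124 and 0.0847) and without inhibitor library A or C (0.112 and 0.116), and held without inhibitor library B (0.0266). It was also lost when every gene with at least 1 count in any library was tested, at an adjusted p of 0.0518. With limma on log2 of FPKM plus 1 and no minimum, the adjusted p was 0.0716 and the call was lost. With the column letter as a block for the replicate, the adjusted p was 0.0590 and the call was lost.

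Gemin4, which binds Gemin3, could hardly be measured. Its values were 1.10, 0.749 and 1.05 CPM with G786-1089 and 1.46, 0.985 and 0.736 with DMSO, and the groups overlapped. The log2 fold change was -0.14 with a 95% interval of -1.59 to 1.31 and an adjusted p of 0.914 (edgeR). Of its 3540 exon bases, 3410 are shared with neighbouring genes, 3353 of them with Glod4 on the same strand and 57 with Dbil5 on the opposite strand, and 130 are its own. Reads that overlap exons of more than 1 gene are not counted in the Union mode the authors used. Among protein-coding genes with at least 90% of exon bases shared, 55 of 302 had any count, against 10117 of 16412 genes that share none. Gemin4 counts therefore come from a small piece of its transcript.

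Gemin5 recognises the small nuclear RNA and delivers it to the complex. It had 21.1, 52.2 and 48.3 CPM with G786-1089 and 22.6, 30.8 and 29.1 with DMSO. Inhibitor libraries B and C were above all DMSO libraries and library A was below them. The log2 fold change of 0.56, with an SE of 0.35, did not pass the test (adjusted p = 0.361, edgeR).

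Gemin6, Gemin7 and Gemin8 form a subcomplex, in which Gemin6 and Gemin7 have folds like those of Sm proteins and Gemin8 ties the pair to SMN. Gemin6, at chr17:80224441-80228497 on the plus strand, had 36.8, 38.0 and 25.1 CPM with G786-1089 and 56.3, 51.9 and 52.4 with DMSO. All inhibitor libraries were below all DMSO libraries. The log2 fold change was -0.69 with an SE of 0.20, a 95% interval of -1.15 to -0.22 and an adjusted p of 0.0649, which missed the threshold (edgeR). The adjusted p was 0.00504 with DESeq2, and 0.0214 and 0.0178 with limma on log2 FPKM of genes with an FPKM of at least 1. It was 0.0741 with limma and no minimum, 0.145 with library size only, 0.104 with the column letter as a block and 0.0838 to 0.169 with 1 library left out, none of which called Gemin6.

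Gemin7 was the most even of them. Its levels were 102, 102 and 133 CPM with G786-1089 and 120, 115 and 123 with DMSO, and the log2 fold change was -0.09 with a 95% interval of -0.41 to 0.24 (adjusted p = 0.742, edgeR). The sign of the change in Gemin7 and Gemin4 turned when libraries were scaled by total count alone, which shifted the median of all genes from 0.041 to 0.246 on the log2 scale. Gemin8 had 10.7, 6.43 and 11.4 CPM with G786-1089 and 4.47, 8.39 and 2.82 with DMSO. Inhibitor library B was below DMSO library B, and the log2 fold change of 0.86, with an SE of 0.49, did not pass (adjusted p = 0.317, edgeR).

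The ratio of Gemin2 to Gemin6 in FPKM sets those genes against each other within a library. It was 1.94, 2.18 and 3.55 in the inhibitor libraries and 0.788, 0.774 and 1.01 in DMSO. The ratio of Gemin6 to Gemin7, the partners of 1 subcomplex, was 0.409, 0.420 and 0.213 with G786-1089 and 0.530, 0.511 and 0.481 with DMSO. The groups did not overlap for these ratios, unlike that of Gemin2 to Smn1. For Gemin2 to Gemin6 this follows from the single genes, since every inhibitor library was above DMSO for Gemin2 and below it for Gemin6. That ratio therefore adds no separate result. All 4 ratios given here were formed after the values of the genes had been seen and were not tested.

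Coil, at chr11:88970252-88991613 on the plus strand, had the largest log2 fold change of the 10 genes. It stood at 35.1, 38.5 and 41.9 CPM with G786-1089 and at 22.9, 10.9 and 14.0 with DMSO. All inhibitor libraries were above all DMSO libraries, among which library A was the highest. Coil rose 2.42-fold, from 15.9 ± 6.24 to 38.5 ± 3.41 (SD, n = 3), with a log2 fold change of 1.27, an SE of 0.30 and an adjusted p of 0.0344 (edgeR). Without DMSO library A the log2 fold change was 1.63 and the adjusted p 0.0184. The call was lost without DMSO library B or C (adjusted p of 0.0806 and 0.112) and without inhibitor library A, B or C (0.0757, 0.0869 and 0.101). It was also lost with the column letter as a block, at an adjusted p of 0.0728. Of its 3120 exon bases, 197 are shared with the pseudogene 2210409E12Rik.

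**Figure D2:**
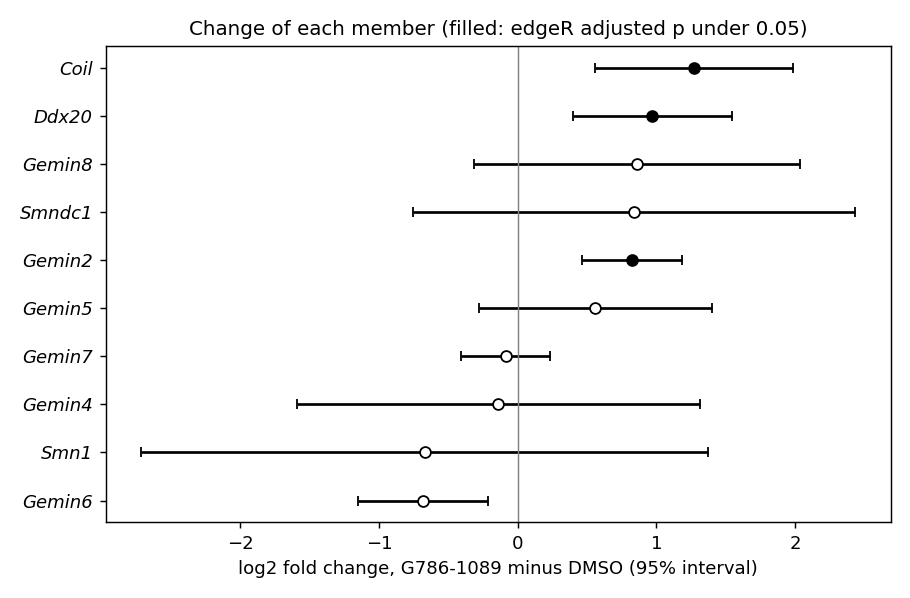
Log2 fold change of each gene, G786-1089 minus DMSO, with its 95% interval. Filled points, Gemin2, Ddx20 and Coil, passed the test, and the intervals of Smndc1 and Smn1 are the widest.

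**Figure D3:**
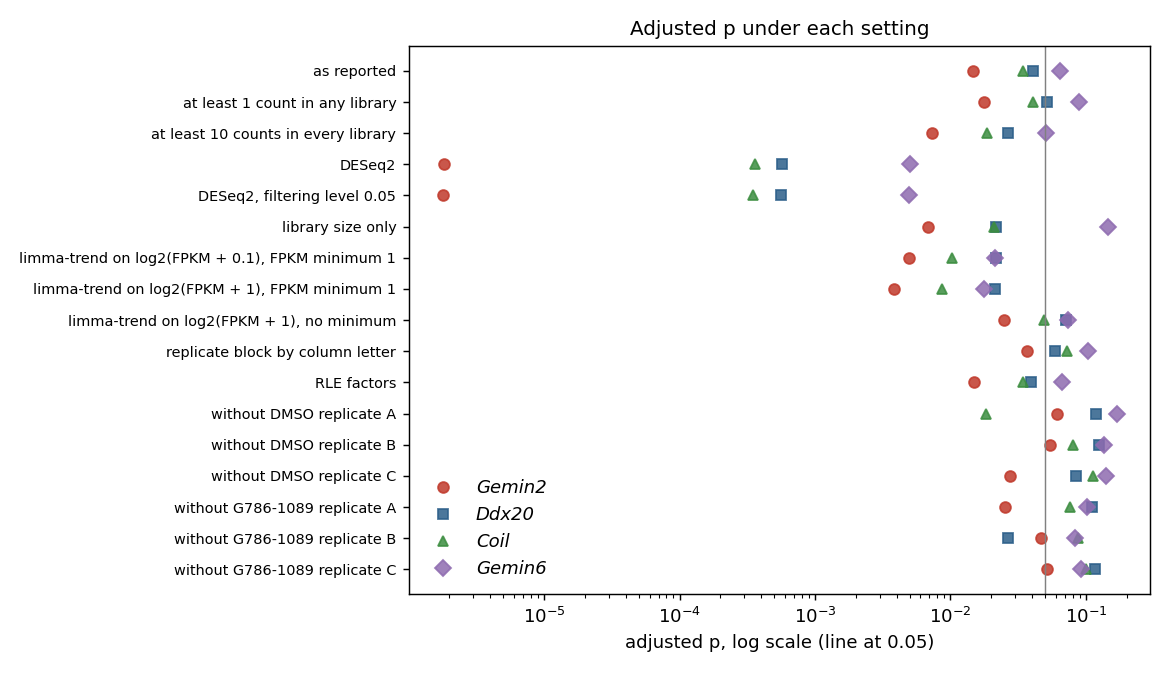
Adjusted p of Gemin2, Ddx20, Coil and Gemin6 as reported and under each alternative, on a log axis with a line at 0.05. Points left of the line were called, and most that crossed to the right belong to fits with 1 library left out.

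Levels of different genes can be compared only per length, and FPKM gave the following order in DMSO. Gemin7 was the highest at 85.5 ± 3.14, above 90.4% of the 11424 tested protein-coding genes, and its libraries did not overlap those of the next gene. Gemin6 at 43.4 ± 1.94 and Gemin2 at 37.1 ± 5.32 had overlapping ranges. Ddx20 at 6.32 ± 0.832, Coil at 4.69 ± 1.84, Gemin5 at 4.06 ± 0.637, Gemin8 at 2.17 ± 1.19, Smn1 at 1.03 ± 0.339 and Smndc1 at 0.916 ± 0.248 formed a run in which each gene overlapped the one before it. Gemin4, at 0.275 ± 0.0957, was the lowest, with no overlap with Smndc1, for a length of which most is not counted. By FPKM, the SMN transcript was above 28.0% of tested coding genes in DMSO, and those of Gemin2, Gemin6 and Gemin7 above more than 80%. Counts were made per transcript and summed per gene, whereas FPKM used the full exon length. Smn1 and Smndc1 each have 2 basic transcripts, Gemin2 and Gemin6 have 1 and Gemin7 has 5. How far reads shared by transcripts of 1 gene were counted was not tested, so this order may partly reflect counting.

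In DMSO Gemin6 had the higher mean, but in library C Gemin2 was already above it, at 42.9 against 42.5 FPKM. With G786-1089 Gemin2 was above Gemin6 in every library. Gemin2 stood at 65.6 ± 7.31 FPKM and Gemin6 at 26.9 ± 5.85, and their ranges no longer overlapped. Gemin7 stayed first at 80.3 ± 12.6 and Gemin4 last at 0.250 ± 0.0475. Smndc1, at 1.63 ± 1.04, was above Smn1, at 0.642 ± 0.625, with overlapping ranges.

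**Figure D4:**
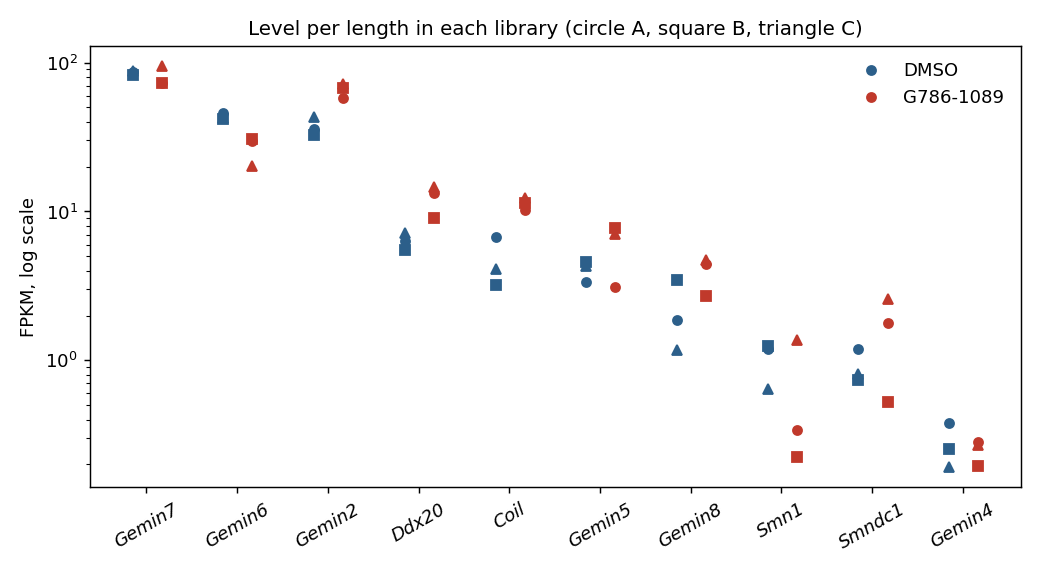
FPKM of each gene in each library on a log axis, ordered by the DMSO mean. Gemin7, Gemin6 and Gemin2 stand well above the others, and Smn1, Smndc1 and Gemin4 are lowest.

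Some of the genes have near-identical copies elsewhere in the genome that could share reads with them. By sequence, at 95% identity or more over at least 200 bases, Gemin6 matched Gemin6-ps and Gm3678, Gemin8 matched Gm5455, Gemin4 matched Gm6330 and Smndc1 matched Gm5871. The copies drew few counts over all 6 libraries, namely 127 for Gemin6-ps, 115 for Gm5455, 70 for Gm6330, 32 for Gm3678 and 0 for Gm5871. Reads lost to copies by multiple mapping cannot be counted from these tables.

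The genes whose profile over the 6 libraries was most like that of Smndc1, by the root mean square difference of centred log2 CPM among 7900 genes, were Sec14l1 (0.247), B3glct (0.266), Xkr8 (0.297), Fbxo16 (0.299) and Acad8 (0.307). Within the SMN complex the nearest was Ddx20 at 0.547, followed by Gemin4 at 0.654, and the farthest was Gemin6 at 1.08. This is a description over 6 libraries, without a test.

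Genes in the same pathway as the complex were called in both directions, and no list was tested as a set. Over all tested genes, 6.98% were called higher and 7.8% lower, and 18.5% did not overlap in the downward direction. Of the 8 Sm core genes, which encode the ring that SMN loads, 5 fell, none rose, and all 8 had inhibitor libraries below the DMSO libraries. Their median log2 fold change was -0.64 beside 0.041 for all tested genes. Snrpd3 had 253, 210 and 199 CPM with G786-1089 and 467, 442 and 399 with DMSO, a log2 fold change of -0.98 with an SE of 0.12 and an adjusted p of 0.00298 (edgeR). Snrpb fell by 0.84 on the log2 scale, from 675 ± 49.2 to 377 ± 27.3 CPM, and Snrpd2 fell by 0.80, from 273 ± 19.0 to 157 ± 17.0.

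The background for the next lists was again 6.98% of all tested genes called higher and 7.8% called lower. Of 9 genes for Sm protein methylation and loading, 2 fell and none rose, with a median of -0.12. These were Prmt7, an arginine methyltransferase, with a log2 fold change of -0.59 (adjusted p = 0.0407), and Clns1a, which encodes the Sm chaperone pICln, with -0.56 (adjusted p = 0.0464, edgeR). Riok1, a partner of the methyltransferase PRMT5, had a log2 fold change of 0.92 and an adjusted p of 0.0763. Of 8 genes for cap formation, export and import of small nuclear RNAs, 1 rose, the export receptor Xpo1, from 28.8 ± 2.88 to 62.5 ± 12.9 CPM (log2 fold change of 1.12, adjusted p = 0.0139, edgeR). Tgs1, which hypermethylates the cap, had 1.04 (adjusted p = 0.0693) and Kpnb1, importin β, had 0.49 (adjusted p = 0.0789). The median of that list was 0.23.

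Cajal body and Tudor domain genes stand beside the same 6.98% of all tested genes called higher and 7.8% called lower. Of 9 other Cajal body genes, 1 rose, namely Uspl1, from 56.3 ± 5.98 to 99.9 ± 13.2 CPM (log2 fold change of 0.83, adjusted p = 0.0134, edgeR). The list had a median of 0.66, with Zpr1 at 0.72 (adjusted p = 0.0531) and Wrap53 at 1.10 (adjusted p = 0.146). Of 21 tested Tudor domain genes out of 26, 1 rose, the histone demethylase gene Kdm4b, from 32.0 ± 4.71 to 87.7 ± 14.1 CPM (log2 fold change of 1.45, adjusted p = 0.00369, edgeR). Lbr at 0.50 and Zgpat at 0.54 did not pass (adjusted p of 0.0631 and 0.118), and the median was 0.24.

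The lists for particles of the spliceosome, in which SMNDC1 acts, stand beside the same background of 6.98% of all tested genes called higher and 7.8% called lower. Of 13 tested U2 particle genes out of 14, 2 fell and none rose, with a median of -0.09. They were Phf5a at -0.68 (adjusted p = 0.0122) and Sf3b5 at -0.53 (adjusted p = 0.0189, edgeR), while Snrpa1 had -0.44 and an adjusted p of 0.0808. Of 14 tri-snRNP genes, 1 rose and 1 fell, with a median of 0.013. Sart1 had a log2 fold change of 0.64 (adjusted p = 0.0427) and Eftud2 one of -0.32 (adjusted p = 0.0355), and Prpf6 had 0.57 with an adjusted p of 0.0973 (edgeR).

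**Figure D5:**
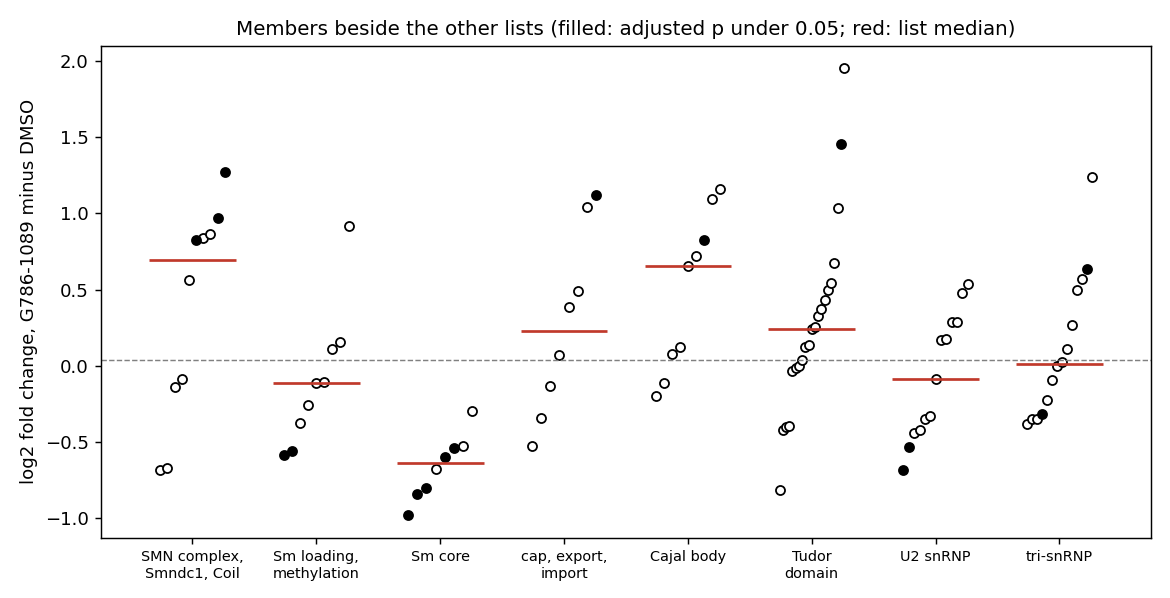
Log2 fold change, G786-1089 minus DMSO, of each tested gene in the SMN complex with Smndc1 and Coil and in the 7 other lists. Filled points passed the test, red lines are list medians and the dashed line is the median of all genes, and the Sm core list is the one that lies wholly below 0.

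Totals were 59070705 to 69480568 counts in the DMSO libraries and 70150880 to 94747943 in the inhibitor libraries, so every inhibitor library was deeper. TMM factors ran from 0.921 to 0.938 in DMSO and from 1.058 to 1.096 with G786-1089. The summed α-cell markers ran from 17850 to 20110 FPKM in DMSO and from 2860 to 3445 with G786-1089, mostly through Gcg, the glucagon gene, and Gc was listed at 0 throughout. Of 7 β-cell markers 5 had counts, summing to 3.64 to 4.82 and 1.42 to 3.91 FPKM, with Ins1 and Pdx1 at 0, and the 3 markers of δ and PP cells were at 0. Fibroblast and immune markers, 5 of 6 with counts, summed to 0.280 to 0.842 and 0.0017 to 0.0740 FPKM. The part of depth and of these markers in the results above was not tested, and fewer cells of a type and less RNA per cell cannot be told apart in bulk libraries.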

How the data were processed

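RNA from αTC1 cells was made into 6 libraries by Smart-seq2, an amplified, unstranded full-length protocol for low input, and sequenced in pairs. The authors aligned reads with STAR to GRCm38, counted Ensembl e100 basic transcripts irrespective of strand in Union mode and summed them per gene; the submitters' processing notes list STAR 2.7.9a, Picard 2.19.2, DESeq2 1.34.0 and R 4.1.3. The authors deposited raw counts per gene and FPKM values. Even numbers made up 78.1% of counts from 1 to 10, so counts of that size cannot be taken as independent fragments. Of the 60 counts of the 10 genes, 32 were even. The cause was not tested.

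Counts of all genes were fitted with edgeR 4.0.16 under R 4.3.3 (filterByExpr with a minimum count of 10 and total of 15, TMM, glmQLFit and glmQLFTest) and adjusted by Benjamini-Hochberg over 15082 genes. SEs are the absolute log2 fold change over the square root of F. A script with this fit was tested on simulated data. An exact permutation test of 3 against 3 cannot go below p = 0.1. Alternatives used DESeq2 1.42.0 and limma 3.58.1 (log2 of FPKM plus 1 or 0.1), other scalings, filters and thresholds, a block by letter and each library left out. The groups come from the labels. The study's reporting summary ties treatments of a replicate to 1 batch of cells. Whether the column letters mark those replicates is not given in the sources used here. Deviations from the group means of same-letter libraries had correlations of -0.0212, 0.00563 and 0.0215 across genes. Gene models were from GENCODE vM21, in which 55141 of 55487 identifiers matched, promoters from RefSeq, where all 10 genes matched, and copies from blastn 2.17.0. Named genes are all 10 members, up to 3 genes per list with the smallest p, the 5 profiles most like Smndc1, and overlapping genes and copies. The members and lists were chosen with earlier results of these data known. Some cell type marker results are not reported here.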

Additional observations from a re-analysis of the deposited data

How the results depend on the processing

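Smndc1 and Smn1 were called in none of the 16 alternatives and kept their sign in each, with adjusted p from 0.195 to 0.826 and from 0.206 to 0.902. Gemin2 was called in 13, Coil in 10, Ddx20 in 8 and Gemin6 in 4. Against 3 of the 10 genes called higher, the study's thresholds (adjusted p up to 0.1 and a log2 change of 1 or more either way) gave 1, and leaving out 1 library gave 0 to 2, with 0 without DMSO library B or inhibitor library C and 1 without DMSO library A or C or inhibitor library A. Against 0 called lower, DESeq2 gave 1 at its default filtering, as did DESeq2 with the filtering level at 0.05 and limma on FPKM of at least 1 with either pseudocount, and leaving out a library gave 0. The DESeq2 run at level 0.05 was chosen after seeing the data from the default run. Gemin4 turned to 0.067 with library size only and ran from -0.35 (without DMSO library C) to 0.16 (without DMSO library A) with 1 library left out, with 0.016 without inhibitor library B, and Gemin7 to 0.12 with library size only.

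Of all genes, 2230 were called, 1053 higher and 1177 lower. DESeq2 called 4276 (2171 and 2105), or 4298 (2181 and 2117) at level 0.05. Library size only called 1630 higher and 796 lower. The study's thresholds called 628 lower. Leaving out 1 library gave 1253 to 1556 calls, 545 to 613 higher and 706 to 943 lower, on fewer samples. The cause of the other shifts was not tested. With the column letter as a replicate block, 1232 genes were called (524 higher and 708 lower) and 1 of the 10 genes, Gemin2, at an adjusted p of 0.0367. Ddx20 and Coil lost their calls there and no other gene of the 10 changed its call.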
